A study of Oryza sativa Japonica Group with 4 samples.

Results

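The protein disulfide isomerase-like (PDIL) family of rice was followed across panicle RNA from 4 groups, each measured on 1 Affymetrix array. The members were the genes whose symbol or synonym begins with PDIL1-, PDIL2- or PDIL5-, and a gene with several probe sets was read by the brightest of them on average. Of 12 such genes in the gene reference, 11 had a probe set paired with them alone, among 17905 genes measured in all. They were PDIL1-1 (LOC4350002), PDIL1-2 (LOC4335906), PDIL1-3 (LOC4329652), PDIL1-4 (LOC4327971), PDIL1-5 (LOC4340223), PDIL2-1 (LOC4337858), PDIL2-2 (LOC4326806), PDIL2-3 (LOC4347226), PDIL5-1 (LOC4332486), PDIL5-2 (LOC4335881) and PDIL5-4 (LOC4343420). PDIL5-3 (LOC4329624) was not analysed here. The reference also lists PDIL1-4 under the name PDIL2-1 and PDIL2-3 under the name PDIL5-1, so the names are tied to the locus numbers given here.

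The groups were a POLA RNAi line (T2 generation) and wild type in ripening panicles taken 10 to 15 days from pollination, and the polaris (pola) mutant and wild type at the early to late meiotic stage. All were Oryza sativa Japonica Group grown in a greenhouse under natural light, and each array held pooled RNA from 20 panicles of 10 plants. The promoter of the RNAi construct, the number of independent lines and the nature of the pola lesion are not stated in the sources used here. For the RNAi sample, the label's free text speaks of wild lines, whereas the title, the source and the genotype field name RNAi, and those were followed. There were no replicates, so no difference below has a replicate check, no test was run, and the small number of arrays bounds the precision.

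Protein disulfide isomerases are enzymes of the endoplasmic reticulum that form, break and rearrange disulfide bonds in proteins passing through the secretory pathway. They carry domains of the thioredoxin fold and work beside chaperones such as BiP and calreticulin and under the unfolded protein response. In rice endosperm they are known for the folding of storage proteins: the esp2 mutant, which lacks PDIL1-1, accumulates glutelin precursors in the endoplasmic reticulum, and PDIL2-3 has been tied to the packing of cysteine-rich prolamins into protein bodies. In the anther, the tapetum also secretes large amounts of protein while pollen forms.

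Values are MAS5 signals, a linear brightness scale on which the trimmed mean of each array was set to 500.1. Differences are log2 ratios of signals after adding 23.4, the 25th percentile of all signals, and a gene is called 2-fold different where the ratio is at least 1 in size and the brighter of its 2 signals reaches the median of its own array. The medians were 65.7 on the RNAi array against 163 on its wild-type array, and 51.8 on the mutant array against 124 on its wild-type array, and the 75th percentiles ranged from 487 to 521. The GAPDH control, a sign of RNA quality, had a 3′ over 5′ ratio of 3.32 on the RNAi array against 2.01 on its wild-type array, and 4.22 on the mutant array against 2.04 on its wild-type array. The part of these differences between arrays in the ratios of single genes was not tested. Of the 11 members, 9 had signals of at least 682 on every array, and PDIL1-2 and PDIL1-3 were dim, with no signal above 194.6.

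**Figure D1:**
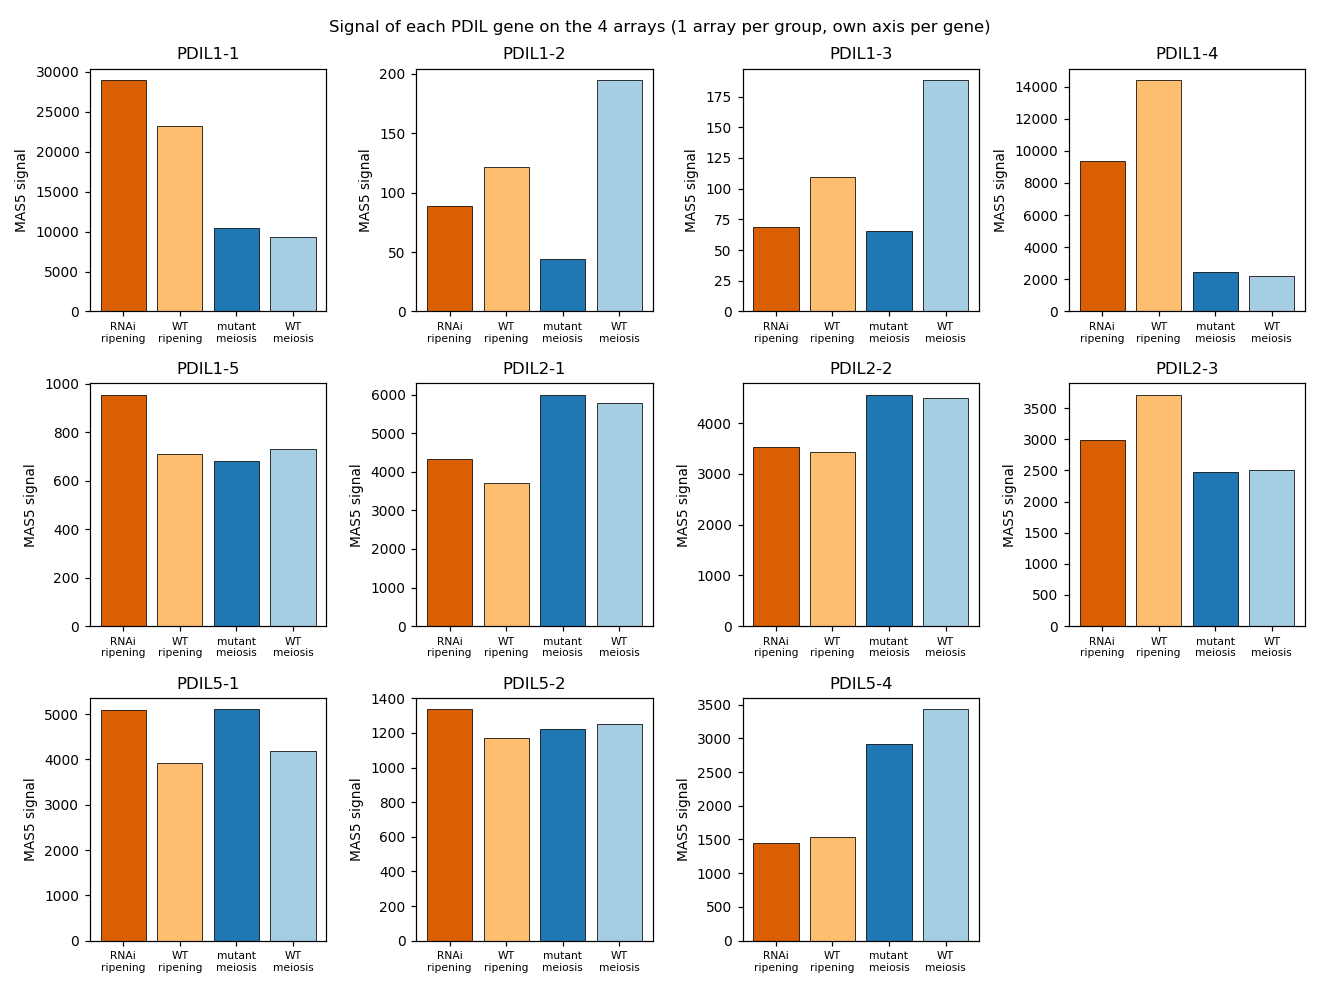
MAS5 signal (linear axis from 0, own axis for each gene) of the 11 PDIL genes on the 4 arrays, 1 bar per array. PDIL1-1 and PDIL1-4 are higher on both ripening arrays than on both meiotic arrays, and PDIL5-4 is lower on both ripening arrays.

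The comparison of ripening with meiosis in wild type places the family across the stages at which the RNAi line and the mutant were sampled. PDIL1-1 and PDIL1-4 were higher at ripening, PDIL5-4 was lower, and the other 8 members stayed under 2-fold. All 11 members passed the filter on dim signals. With 2 members called higher and 1 lower of 11, the family stood beside a background of 15.5% of 16033 genes called higher and 16.4% called lower, so its share of calls was near that of all genes. The median log2 ratio of the members was -0.10, against -0.01 for all genes kept.

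PDIL1-4, a member of the first PDIL class, had the widest span of the 11 members, with 6.44 times as much signal on its highest array as on its lowest. Its signal was 9341 in RNAi panicles and 14396 in wild-type panicles at ripening, and 2436 in mutant panicles and 2236 in wild-type panicles at meiosis. Both ripening arrays were high and both meiotic arrays low, and the lower ripening array read 3.83 times the higher meiotic one. The log2 ratio of ripening over meiosis in wild type was 2.67, and 3.95% of the kept genes had a higher one.

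PDIL1-1, the isomerase lacking in esp2, had a signal of 28963 in RNAi panicles and 23259 in wild-type panicles at ripening, and of 10513 in mutant panicles and 9294 in wild-type panicles at meiosis. The ripening and meiotic arrays did not overlap, and the gap between the nearest of them was 2.21-fold. The log2 ratio in wild type was 1.32, a 2.50-fold difference, and 11.2% of kept genes had a higher one. The ratio ran from 1.05 to 1.32 over the alternative settings, with the lowest value after quantile normalization.

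PDIL5-4, a member that carries domains related to the yeast cargo receptors Erv41 and Erv46 beside its thioredoxin domain, went the other way. Its signal was 1441 in RNAi panicles and 1531 in wild-type panicles at ripening, and 2917 in mutant panicles and 3429 in wild-type panicles at meiosis. Both ripening arrays were low, and the higher of them was still below the lower meiotic array. The log2 ratio in wild type was -1.15, close to the limit of a 2-fold call, and 14.1% of kept genes had a lower one.

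The members of the second class were under 2-fold in both directions. PDIL2-1 read 4337 in RNAi panicles and 3709 in wild-type panicles at ripening, and 6000 in mutant panicles and 5793 in wild-type panicles at meiosis, a log2 ratio of -0.64 in wild type. It was the 1 member with a second probe set, whose ratio was -0.94, with 3163 in RNAi panicles and 2314 in wild-type panicles at ripening, against 4732 in mutant panicles and 4469 in wild-type panicles at meiosis. In Arabidopsis, the gene of the same name acts in the embryo sac. PDIL2-2, its relative of the same class, read 3529 in RNAi panicles and 3429 in wild-type panicles at ripening, against 4562 in mutant panicles and 4500 in wild-type panicles at meiosis. For both genes the 2 ripening arrays were lower than the 2 meiotic arrays. With PDIL2-1 read by its brighter probe set, their profiles over the 4 arrays lay closest among all pairs of the 9 bright members. The root mean square difference was 0.11 on the centred log2 scale. The second probe set of PDIL2-1 was not used in this ranking, and its ratio of -0.94 lay further from the -0.39 of PDIL2-2. The brighter set ends in _s_at, a mark of probes that can match several transcripts, and the second ends in _at. PDIL2-3, the prolamin-linked member, differed from PDIL2-1 and PDIL2-2. It read 2992 in RNAi panicles and 3716 in wild-type panicles at ripening. At meiosis it read 2477 in mutant panicles and 2500 in wild-type panicles. Its ratio in wild type was 0.57 and both ripening arrays were the higher ones. Its probe set ends in _x_at, the mark of probes that can also bind related transcripts.

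PDIL1-5 read 956 in RNAi panicles and 709 in wild-type panicles at ripening, and 682 in mutant panicles and 732 in wild-type panicles at meiosis. The stages overlapped, and the ratio in wild type was -0.04. PDIL5-1, whose barley counterpart is a host factor for bymoviruses, read 5094 in RNAi panicles and 3917 in wild-type panicles at ripening, against 5106 in mutant panicles and 4183 in wild-type panicles at meiosis. Here the stages overlapped as well, with a ratio of -0.09 in wild type. PDIL5-2, whose Arabidopsis counterpart is anchored in the membrane of the endoplasmic reticulum, varied least of all members: its highest array read 1.14 times its lowest, with 1336 in RNAi panicles and 1170 in wild-type panicles at ripening, and 1223 in mutant panicles and 1253 in wild-type panicles at meiosis.

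The RNAi line at ripening over the mutant at meiosis gives a second stage difference from arrays that the wild-type comparison did not use, although genotype differs along with stage in it. This comparison was added after the data were seen. In it, 2 members were called higher and 1 lower of 11, beside 15.8% of 16633 genes called higher and 16.8% called lower. PDIL1-4 had a log2 ratio of 1.93, PDIL1-1 of 1.46 and PDIL5-4 of -1.01, the last at the edge of a 2-fold call. These 3 were thus called in both pairs of arrays, 2 members higher and 1 lower of 11, where 11.3% and 12.7% of 15774 genes kept in both pairs were called higher and lower in both. The ripening arrays lay above both meiotic arrays for 3 members and below both for another 3, against 34.2% and 36.2% of these genes, which is again near the background. The ratio of PDIL1-4 was smaller than the 2.67 in wild type, and that of PDIL1-1 was larger than the 1.32 in wild type; without replicates these differences were not tested.

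**Figure D2:**
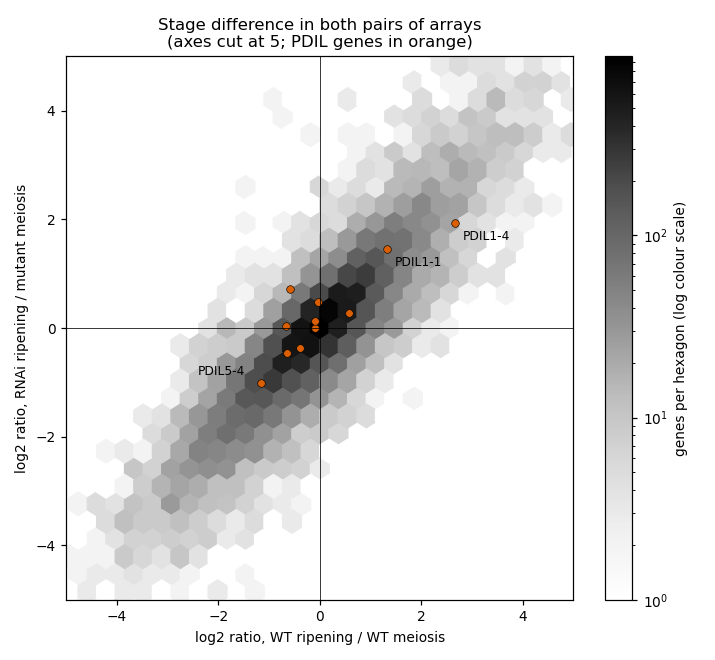
Log2 ratio of ripening over meiosis in wild type (horizontal axis) and of the RNAi line at ripening over the pola mutant at meiosis (vertical axis) for 15774 genes kept in both, as grey hexagons on a log colour scale, with the 11 PDIL genes in orange and both axes cut at 5. PDIL1-4 (2.67 and 1.93), PDIL1-1 (1.32 and 1.46) and PDIL5-4 (-1.15 and -1.01) lie away from the centre, where most of the other members lie.

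The summed signals of the endosperm, embryo and tapetum markers differed widely between the stages, and in such whole-panicle RNA fewer cells of a type and less RNA per cell cannot be told apart. The summed signal of 4 endosperm markers, the glutelin genes GLUA-1, GLUA-2 and GLUA-3 and the starch synthase gene GBSS1, was 121919 in RNAi panicles and 92420 in wild-type panicles at ripening, against 347 in mutant panicles and 440 in wild-type panicles at meiosis. The embryo marker EM read 30401 in RNAi panicles and 21630 in wild-type panicles at ripening, against 110 in mutant panicles and 224 in wild-type panicles at meiosis. The summed signal of 6 tapetum markers was 971 in RNAi panicles and 747 in wild-type panicles at ripening, against 89075 in mutant panicles and 61452 in wild-type panicles at meiosis. Of these, 5 were 2-fold lower at ripening in wild type and MTR1 was not, with 806 in RNAi panicles and 380 in wild-type panicles at ripening, against 761 in mutant panicles and 558 in wild-type panicles at meiosis. Among the endosperm markers GLUA-2 was not called, with 257 in RNAi panicles and 363 in wild-type panicles at ripening, against 251 in mutant panicles and 194 in wild-type panicles at meiosis. The summed signal of 3 meiocyte markers was 891 in RNAi panicles and 1154 in wild-type panicles at ripening, against 2764 in mutant panicles and 3528 in wild-type panicles at meiosis. Among these, PAIR2 was under 2-fold, with a ratio of -0.15 in wild type. The summed signal of 3 green tissue markers ranged from 18817 to 33890 over the 4 arrays, most of it from CAB2R, with 16345 to 30868. RBCS, another of the 3, was called lower in the RNAi comparison, with 275 in RNAi panicles and 658 in wild-type panicles. That ratio was -1.19, or -1.26 with a floor of 163, the highest array median. No marker was listed at 0. The part of the tissue make-up in the stage ratios of the PDIL genes was not tested.

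At meiosis, the pola mutant was set against wild type. With 1 array per group, the mutation and other differences between the arrays cannot be told apart. The 9 bright members had log2 ratios from -0.23 for PDIL5-4 to 0.29 for PDIL5-1. PDIL1-1 had a ratio of 0.18, or -0.02 after quantile normalization, and PDIL1-4 one of 0.12. The 2 dim members, PDIL1-2 and PDIL1-3, were called lower in the mutant, beside a background of 4.49% of 15648 genes called lower and 2.33% called higher. None of the 11 members was called higher.

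PDIL1-2 read 88.8 in RNAi panicles and 122 in wild-type panicles at ripening, and 44.4 in mutant panicles and 195 in wild-type panicles at meiosis. On 3 arrays these signals lay below a common floor of 163, the highest array median. The log2 ratio of mutant over wild type was -1.68, and it was -0.25 when signals below that floor were raised to it. PDIL1-3 read 68.6 in RNAi panicles and 110 in wild-type panicles at ripening, and 65.7 in mutant panicles and 188 in wild-type panicles at meiosis. Its ratio was -1.25, or -0.21 with the common floor. On the same 3 arrays PDIL1-3 lay below that floor as well, and the median of all probe sets was itself lower on the mutant array, 51.8 against 124 in wild type.

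At ripening, the line labelled POLA RNAi was set against wild type in grain-filling panicles. POLA itself was not analysed here, so its level in the RNAi line is not given. No PDIL gene passed 2-fold. Of the 11 members, 9 passed the filter, all but PDIL1-2 and PDIL1-3, and none of the 9 was called, beside a background of 3.77% of 15769 genes called higher and 7.51% called lower. The median log2 ratio of the 9 members was 0.19, against 0.09 for all genes kept, both without further normalization. Each of the 9 ratios was lower after quantile normalization, as with 0.02 for PDIL2-1 and -0.02 for PDIL1-1. This comparison shares its wild-type array with the stage comparison, as the mutant comparison does.

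PDIL1-4 had the lowest ratio of the 9, -0.62, a 1.54-fold lower signal in the RNAi line, with 13.6% of kept genes lower still. It remained between -0.91 and -0.58 over the alternative settings. PDIL2-3 was the next lowest with -0.31. PDIL1-5 had the highest ratio, 0.42, followed by PDIL5-1 with 0.38 and PDIL1-1 with 0.32. PDIL1-1 and PDIL1-4, both higher at ripening, thus had ratios of opposite sign in the RNAi comparison, but that of PDIL1-1 became -0.04 after quantile normalization, and neither reached 2-fold. PDIL2-1 had 0.22 with its brighter probe set and 0.45 with the other, PDIL5-2 had 0.19, PDIL2-2 had 0.04 and PDIL5-4 had -0.09.

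**Figure D3:**
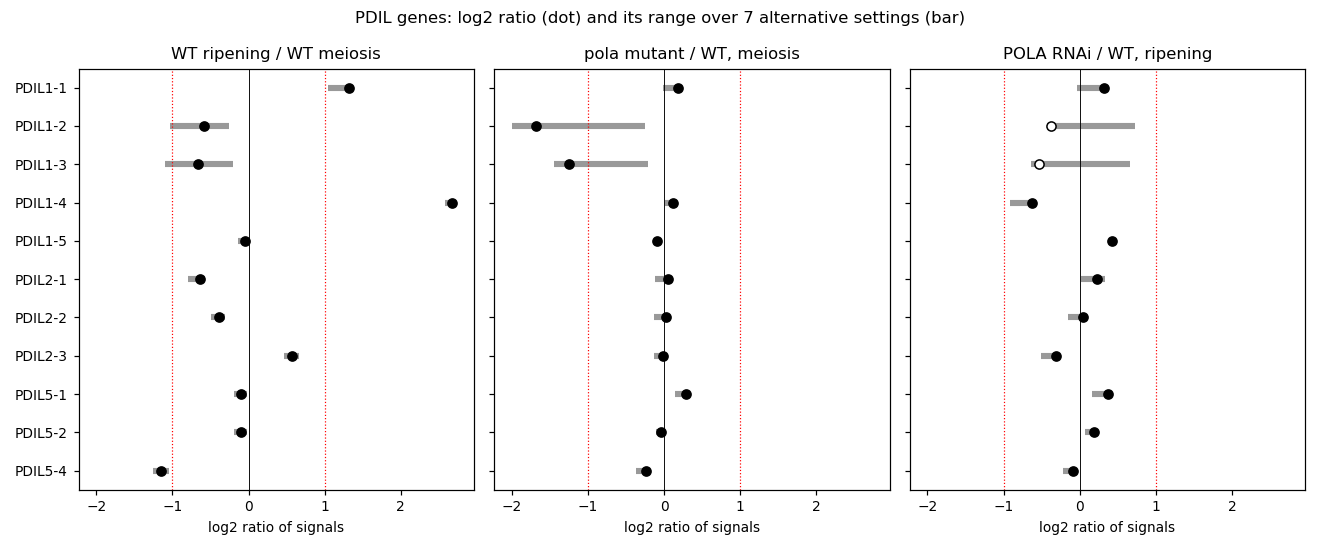
Log2 ratio of signals (dots; open where the gene did not pass the filter on dim signals) of the 11 PDIL genes in 3 comparisons, with grey bars for the range over 7 alternative settings and red dotted lines at 2-fold. PDIL1-1, PDIL1-4 and PDIL5-4 stay past 2-fold in the stage comparison under every setting drawn, while the bars of the dim genes PDIL1-2 and PDIL1-3 reach from -1.99 to -0.25 and from -1.44 to -0.21 in the mutant comparison.

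The partners of the family in the endoplasmic reticulum were read in the same comparisons. Of 7 measured chaperones and co-chaperones, none was 2-fold different between the stages in wild type. The background was 15.5% of 16033 genes called higher and 16.4% called lower. Their median log2 ratio was 0.27, against -0.10 for the 11 PDIL members. The chaperone gene BIP1 read 18680 in RNAi panicles and 13351 in wild-type panicles at ripening, and 8341 in mutant panicles and 8080 in wild-type panicles at meiosis. Its ratio was 0.72 in wild type and 1.16 in the RNAi line over the mutant, past 2-fold in the second pair and not in the first, a difference that was not tested. After quantile normalization the second ratio was 0.91, under 2-fold. The background in the second pair was 15.8% of 16633 genes called higher. The calreticulin gene CRO1 was lower at ripening, with 13552 in RNAi panicles and 10764 in wild-type panicles at ripening, against 16802 in mutant panicles and 14814 in wild-type panicles at meiosis, a ratio of -0.46 in wild type. BIP4, a dim BiP gene, was the 1 list member past 2-fold in the RNAi comparison: it had 8.70 in RNAi panicles and 187 in wild-type panicles, a ratio of -2.71 that became -0.20 with the common floor. In the RNAi line over the mutant its ratio was -2.67, or -0.15 with the common floor. The shares of all genes called lower were 7.51% of 15769 in the RNAi comparison and 16.8% of 16633 in the RNAi line over the mutant. In the mutant comparison none of the 7 was called, with a median of 0.05, the same as the 0.05 of all genes kept.

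ERDJ3B, a J-domain co-chaperone of BiP, is the next protein-coding gene to PDIL2-1 on the chromosome, with 1 tRNA gene between them in the gene reference. It read 3181 in RNAi panicles and 2294 in wild-type panicles at ripening, and 1616 in mutant panicles and 1401 in wild-type panicles at meiosis. Its stage ratio in wild type was 0.70, while that of its neighbour PDIL2-1 was -0.64, so the arrays ordered these neighbouring genes in opposite ways. Neither passed 2-fold.

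Among 4 regulators of the unfolded protein response, BZIP50 was called higher at ripening in wild type, beside 15.5% of 16033 genes. BZIP50, whose transcript is spliced by the sensor IRE1, read 2223 in RNAi panicles and 1236 in wild-type panicles at ripening, and 692 in mutant panicles and 543 in wild-type panicles at meiosis. The ratio was 1.15 in wild type and 1.65 in the RNAi line over the mutant, and it was 0.84 for the RNAi line over wild type. The arrays read the summed transcript and do not tell its spliced form. IRE1 itself read 1032 in RNAi panicles and 947 in wild-type panicles at ripening, against 1326 in mutant panicles and 1290 in wild-type panicles at meiosis. BZIP39, a membrane-bound factor, read 2245 in RNAi panicles and 2086 in wild-type panicles at ripening, against 1981 in mutant panicles and 1906 in wild-type panicles at meiosis. Of 3 genes of degradation at the endoplasmic reticulum, none passed 2-fold in any of the comparisons. OS9, a lectin of that route, read 4063 in RNAi panicles and 3251 in wild-type panicles at ripening, against 3721 in mutant panicles and 3264 in wild-type panicles at meiosis. None of the cytosolic thioredoxins h, relatives of the same fold, passed 2-fold in the wild-type stage comparison, with a median of 0.61 over the 4 that passed the filter of 5 measured. In the RNAi line over the mutant 1 was called higher, OsTrxh5 with 1.27, or 0.00 with the common floor, beside 15.8% of 16633 genes.

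**Figure D4:**
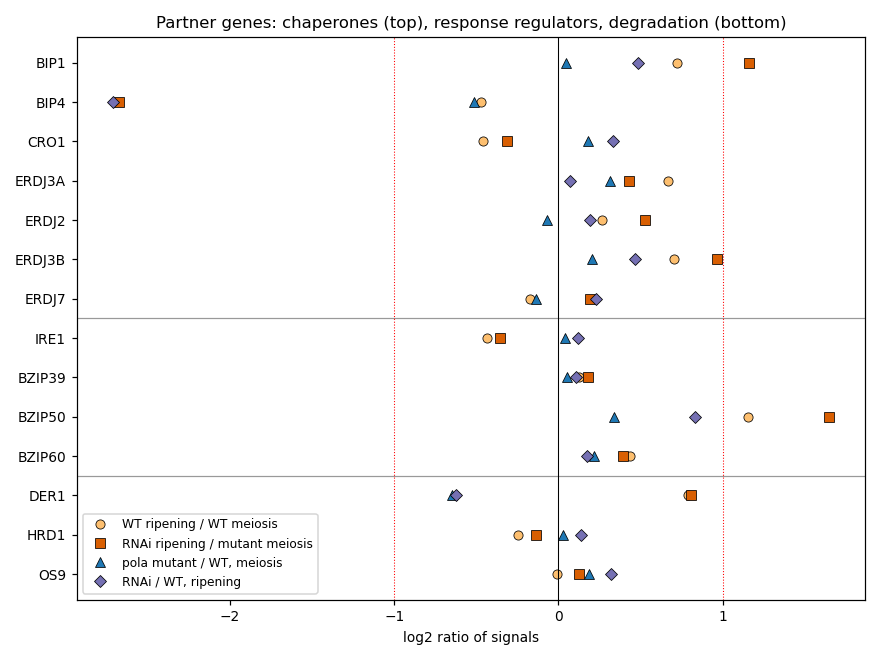
Log2 ratio of signals for 7 chaperones and co-chaperones, 4 regulators of the unfolded protein response and 3 degradation genes of the endoplasmic reticulum, with 1 symbol per comparison and red dotted lines at 2-fold. BZIP50 lies past 2-fold in both stage comparisons (1.15 and 1.65), BIP1 in the RNAi line over the mutant (1.16), and BIP4 lies far to the left in both comparisons that use the RNAi array (-2.71 and -2.67). The BIP1 value of 1.16 was 0.91 after quantile normalization, which is not drawn.

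Most genes of storage proteins, clients of the isomerases in the endosperm, differed more between stages than the PDIL genes. Of 8 measured storage protein genes, 5 were called higher at ripening in wild type and none lower. The background was 15.5% of 16033 genes called higher and 16.4% called lower. The middle log2 ratio was 7.97, and 7.33 once the common floor was applied. GLUA-2 (0.83), GLB1 (0.22) and GLUB-4 (-0.31) were not called. The glutelin gene GLUA-1 read 59928 in RNAi panicles and 45837 in wild-type panicles at ripening, and 45.5 in mutant panicles and 17.2 in wild-type panicles at meiosis. The prolamin gene PROLM25 read 44136 in RNAi panicles and 30371 in wild-type panicles at ripening, against 70.7 in mutant panicles and 9.27 in wild-type panicles at meiosis. The glutelin gene GLUD-1 read 33119 in RNAi panicles and 25839 in wild-type panicles at ripening, against 1.34 in mutant panicles and 11.2 in wild-type panicles at meiosis. In the RNAi comparison 1 of the 8 was called, GLUB-4 with 6.65 in RNAi panicles and 191 in wild-type panicles, a ratio of -2.83 that became -0.22 with the common floor. The background there was 3.77% of 15769 genes called higher and 7.51% called lower. The list median was 0.33. After quantile normalization the 5 genes called higher at ripening had RNAi ratios from -0.10 for GLUA-3 to 0.11 for PROLM25. In the mutant comparison 5 of the 8 passed the filter, and all but GLB1 read at most 251 on either array: PROLM25 was called higher with 1.53 and GLUB-4 lower with -2.60, or 0.00 and -0.57 with the common floor. Of all 15648 genes kept there, 2.33% were called higher and 4.49% lower. On both meiotic arrays GLUA-1, GLUA-3, PROLM25 and GLUD-1 lay below the common floor of 163. GLUA-2, GLUB-5, GLB1 and PDIL1-1 lay above it on both, and GLUB-4 lay above it in wild type alone.

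The genes with the profile most like each bright member were found among 1789 genes with a descriptive name and signals above the common floor on all 4 arrays, by the root mean square difference of centred log2 signals over the 4 arrays. For PDIL1-1 they were ITPK1, gRASC8 and INO1, at 0.060, 0.063 and 0.067. INO1 read 15713 in RNAi panicles and 12782 in wild-type panicles at ripening, against 5257 in mutant panicles and 4610 in wild-type panicles at meiosis. For PDIL1-4 the nearest were DXPS, NAC071 and HXK4, at 0.20 each, and none lay closer. For PDIL5-4 they were phyC, CIN7 and CSLE2, at 0.026, 0.037 and 0.050. The nearest to PDIL2-1 were ACLB-1, OsCASPL2C1 and AtMAP70-2. Those to PDIL2-2 were OST1B, PP2A1 and IRE1, at 0.020, 0.027 and 0.032. The nearest genes were D2HGDH, ELP3 and SIZ1 for PDIL2-3, OsC3H12, KU70 and BRE1A for PDIL1-5, EF-1-beta, AQP and OsRan1 for PDIL5-1, and APG4B, CAT-B and KIN17 for PDIL5-2. A profile over 4 arrays is a coarse measure, and these names describe these arrays alone.

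**Figure D5:**
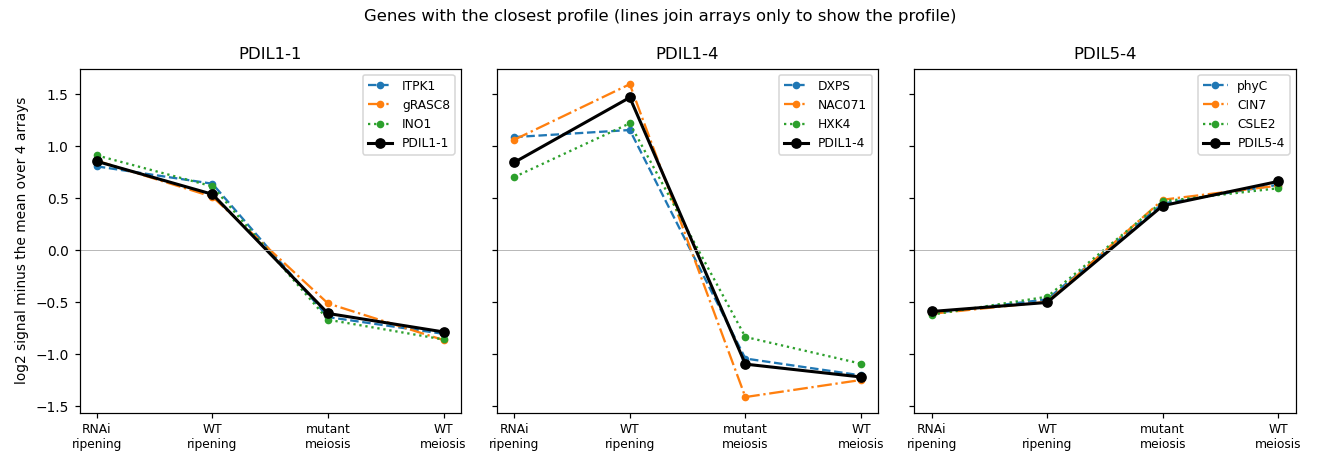
Centred log2 signal (log2 signal minus its mean over the 4 arrays) of PDIL1-1, PDIL1-4 and PDIL5-4 in black, each with the 3 named genes closest to it in other colours; lines join the arrays to show the profile and stand for no order. The closest genes track PDIL5-4 (0.026 to 0.050) and PDIL1-1 (0.060 to 0.067) more tightly than PDIL1-4 (0.20).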

How the data were processed

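The deposited intensity values are linear signals that the authors made with MAS5, per the submitters' processing notes. Neither its version nor the detection calls nor the scanner is given in the sources used here. After 187 control probe sets were set aside, 57194 remained, of which 22436 were paired with exactly 1 gene in the platform's probe table, for 17905 genes. Names came from the gene reference of ASM3414082v1, used for names and neighbours alone, and covered all of these genes. A gene was read by its brightest probe set, with _x_at sets used where it had no other. Log2 ratios used a pseudocount of 23.4, the filter and the 2-fold threshold stated above. With 1 array per group there was no test and no p-value.

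The members and lists were chosen with earlier results of these data known. Lists were taken by symbol or synonym; some planned partners (calnexin, ERO1, SDF2, the RISBZ1 and RPBF factors) were not found by name and are not analysed here. Named genes were all members, up to 3 genes past 2-fold and the brightest of each partner list, and the 3 nearest profiles; ERDJ3B was chosen after its values were seen. No RefSeq sequence table was at hand, so no sequence is shown. The code for the ratio, filter and threshold was tried on simulated arrays with large changes added to brighter probe sets. That simulation held none of the differences in median or GAPDH ratio between the arrays, so it checks the code alone. Alternatives were median centring, quantile normalization, loess centring (span 0.3), pseudocounts of 5.85 and 103, the common floor, the mean over probe sets, leaving out the filter, filtering by the 75th percentile and a 1.5-fold threshold. Python 3.11.15, numpy 2.4.6, pandas 2.3.3, statsmodels 0.14.6 and matplotlib 3.10.9 were used.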

Additional observations from a re-analysis of the deposited data

How the results depend on the processing

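The calls of PDIL1-1 and PDIL1-4 as higher and of PDIL5-4 as lower at ripening in wild type held under each of the 7 alternatives for single genes. The calls of members in the RNAi line over the mutant were not put through these alternatives. Over the 3 comparisons and 11 members, 221 of the alternative values stayed on the same side of 2-fold, 7 lost a call and 3 gained one, all 10 in PDIL1-2 and PDIL1-3. The count of members lower in the mutant was 2, and it was 0 after quantile normalization, after loess centring, with the common floor and when filtering by the 75th percentile, and 1 with the larger pseudocount of 103. The count lower at ripening in wild type was 1, and it was 3 after quantile normalization, 2 after loess centring and 4 with a 1.5-fold threshold. The count lower in the RNAi line was 0 and became 1 with the 1.5-fold threshold, which PDIL1-4 passed. The shares of all genes called under these alternative settings are not given here, so the changed counts have no background beside them. The cause of the changes in the counts was not tested, and the lower threshold of 1.5-fold can only add calls by construction. No paired analysis was possible because each group had 1 array. Without replicates no error of a single ratio can be given, and signals near the array median, as for PDIL1-2 and PDIL1-3, limit what their ratios can show.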
